A study of Mus musculus with 5 samples.

Results

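Rbm38 and 9 further genes of the p53 pathway were followed in 5 bulk RNA libraries of hematopoietic stem cells (HSCs) from mouse bone marrow. The set held 10 of the 55335 genes in the table: Rbm38, Trp53, Mdm2, Ccng1, Phlda3, Sesn2, Trp53inp1, Bax, Bbc3 and Pmaip1. Rbm38 was selected on its level, which differed between the genotypes in these same libraries, so its values are a description and carry no test. The other 9 genes were chosen by their place in the p53 pathway.

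The HSCs were sorted as Kit+ Sca-1+ cells without lineage markers that were CD48- and CD150+, from mice 3 weeks old. Wild-type HSCs (3 libraries) were set against HSCs labelled RankCre-ki (2 libraries), with between 80 and 90 in each library name, read as the number of cells. RankCre-ki animals had the genotype RankCre-ki/wt;Csf1r fl/-, that is 1 Rank allele with a Cre knock-in, 1 floxed Csf1r allele and 1 null Csf1r allele. The strain label was C57BL/6J for all libraries, whereas the methods of the study keep the Csf1r null allele on C3H/HeJ. By the crosses given there, C3H/HeJ stretches can lie near that allele and elsewhere in the genome of RankCre-ki animals. The study's RNA methods do not say whether the controls were littermates, so background and genotype cannot be told apart. Cre driven by Rank is taken by the study to act in embryonic macrophages but not in HSCs, and the comparison asks how HSCs differ that grew up without these macrophages and osteoclasts. The null allele, in contrast, is carried by every cell of the animal. The labels do not say whether libraries came from separate mice, so the tests measure the spread between libraries, which may be partly technical.

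p53, the product of Trp53, is a transcription factor that responds to DNA damage and other stress, and Mdm2 is the ubiquitin ligase that holds it down and is itself switched on by p53. Its targets fall into those that slow growth and the cell cycle and those that open the mitochondrial route to apoptosis. Rbm38 is a target of another kind, an RNA-binding protein that can stabilize the transcript of the cell cycle inhibitor Cdkn1a (p21) and can hold back translation of the p53 transcript itself. In HSCs the pathway is known for limiting self-renewal and for removing damaged stem cells.

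The p53 protein binds DNA as pairs of a palindromic stretch of 10 bases, the p53 half-site. It was searched for on both strands in the RefSeq promoter windows (build GRCm38.p6), which run from 250 bases before to 50 bases after a RefSeq transcript start. Of the 10 genes 8 had a window, and 4 of these 8 (50%) held a half-site, beside 2582 of all 27025 genes with a window (9.55%) and 8.33% of the genes tested below that had one. The 4 were Trp53, Mdm2, Ccng1 and Bax, with the site beginning 75, 186, 185 and 201 bases before the start. They are shown with 10 bases on each side, 5′ to 3′ on the strand of the gene, and the half-site in capitals, because the window of Rbm38 holds none. For comparison the 2 half-sites of Cdkn1a are shown, which begin 73 and 51 bases before its upstream RefSeq start and overlap in the bases printed.
Trp53 (chr11:69580274-69580303, plus strand): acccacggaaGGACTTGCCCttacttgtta
Mdm2 (chr10:117710925-117710954, minus strand): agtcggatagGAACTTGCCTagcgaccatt
Ccng1 (chr11:40755452-40755481, minus strand): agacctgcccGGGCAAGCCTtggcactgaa
Bax (chr7:45467080-45467109, minus strand): agcatatcccAGGCAAGCTTtgaacttgcg
Cdkn1a, first site (chr17:29090896-29090925, plus strand): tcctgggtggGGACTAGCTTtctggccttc
Cdkn1a, second site (chr17:29090918-29090947, plus strand): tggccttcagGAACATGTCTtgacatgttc
Only Cdkn1a among these 5 genes held a full site, meaning 2 half-sites with at most 13 bases between them, as did 20 of the 27025 genes (0.0740%). The window of Rbm38 (chr2:173021652-173021951) held no half-site, nor did those of Phlda3, Sesn2 and Bbc3, which says only that these letters are not in these windows. The windows of Rbm38 and Bbc3 lie downstream of the gene starts in GENCODE (chr2:173020498 and chr7:16308393). Those starts were not searched. A match is a run of letters and does not show that p53 binds there.

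Levels are given as TPM, the share of a gene among the length-corrected transcripts of a library scaled to 1000000, so they can be compared between genes. TPM keeps no record of depth, so that no counting error can be attached to a value. Values of single libraries are given in the order of the replicate numbers, for wild-type HSCs and then for RankCre-ki HSCs. Libraries differed in how much they detected: 1 TPM was reached by between 9021 and 11084 genes in wild-type HSCs and by 12801 and 16386 genes in RankCre-ki HSCs, while mitochondrially encoded transcripts made up 14.7% to 21.02% of the wild-type and 10.7% and 8.21% of the RankCre-ki libraries. RankCre-ki replicate 2 went against its label: it is labelled female but held Eif2s3y, a gene of the Y chromosome, at 62.5 TPM and Xist, the transcript of the inactive X, at 0.0229 TPM. Wild-type replicate 1, labelled male, likewise held Eif2s3y at 41.6 TPM and Xist at 0.0273 TPM, so the sex markers coincide with the name series described next. Whether only the sex label or the identity of RankCre-ki replicate 2 is in error cannot be told from these values, and every group value rests on its label being right. All 12 HSC markers were tested and their sum lay between 590 and 1199 TPM in wild-type HSCs and was 1806 and 1042 TPM in RankCre-ki HSCs. The names of the libraries form 2 series, with wild-type replicate 1 and RankCre-ki replicate 2 in series 1 and the other 3 in series 2, which matches in composition the 2 tagmentation kits of the study's methods. Within this set of 10 genes, 7, 5 and 7 reached 1 TPM in wild-type HSCs, and 9 and 7 in RankCre-ki HSCs.

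Rbm38 stood at 46.1, 22.5 and 35.4 TPM in wild-type HSCs and at 270 and 178 TPM in RankCre-ki HSCs. The groups did not overlap, and the lower RankCre-ki library was 3.86 times the highest wild-type library. The means were 34.6 ± 11.8 TPM (SD, n = 3) and 224 ± 65.0 TPM (SD, n = 2), a ratio of 6.46. Ordered by level within each library, Rbm38 ranked between place 2289 and place 4047 in wild-type HSCs and held places 531 and 689 in RankCre-ki HSCs. Because these values chose the gene, none of them is a test.

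The difference of Rbm38 in log2(TPM + 1), a scale that shrinks differences at low levels, was 2.68 ± 0.57 (SE). The median over all 13981 tested genes was itself above 0, at 0.52, so that Rbm38 lay 2.17 above it. This median depended on the scaling, being 0.17 once libraries were scaled by the median ratio and -0.0865 once quantiles were equalized, and Rbm38 differed by 2.18 and 2.59 under these scalings. Within name series 1 the difference was 1.93 and within series 2 it was 3.21, with 1 RankCre-ki library in each. Without RankCre-ki replicate 2, the library that went against its sex label, it was 2.98, and without RankCre-ki replicate 1 it was 2.38.

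**Figure D1:**
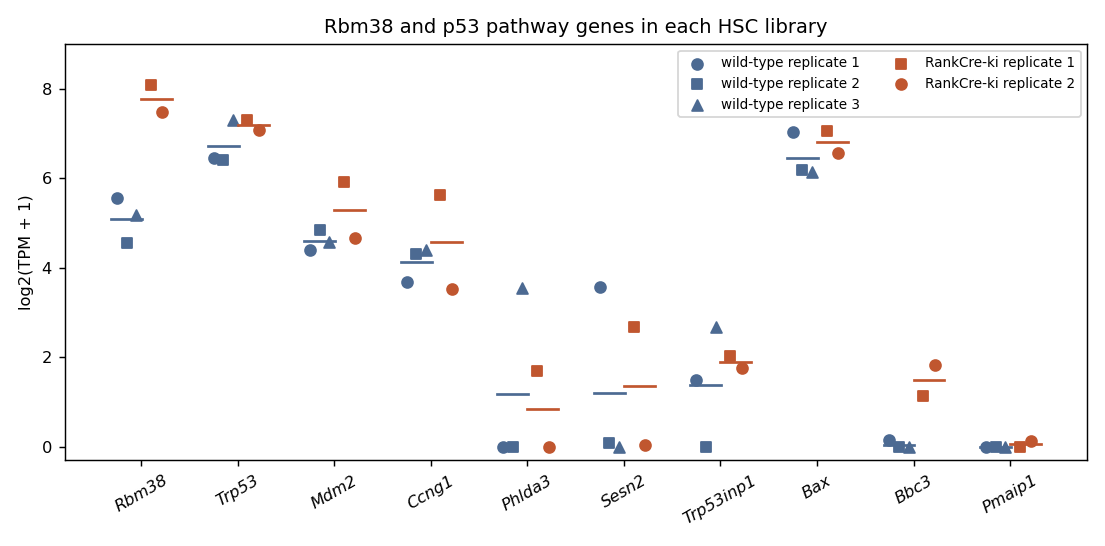
Levels of the 10 genes in each library, as log2(TPM + 1) on the vertical axis, with blue symbols for wild-type and red symbols for RankCre-ki libraries (circles, name series 1; squares and triangles, name series 2) and a bar at each group's mean. Rbm38 and, near 0, Bbc3 are the genes whose RankCre-ki symbols both lie above all wild-type symbols; the other genes overlap.

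Rbm38 (chr2:173020498-173034734, plus strand, GRCm38) shares 157 exonic bases with Gm20490 and 227 with Gm14453, both on the opposite strand. Both were at 0 TPM in all 5 libraries. Rbm24, the closest relative of Rbm38, was likewise at 0 in all libraries, so neither antisense partners nor the paralog had measured signal.

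Erythroid precursors are known for a high level of Rbm38, so the markers of that lineage are given beside it. The summed level of the erythroid marker list was 332, 147 and 149 TPM in wild-type HSCs and 339 and 1653 TPM in RankCre-ki HSCs. Both RankCre-ki sums lay above all wild-type sums, that of replicate 1 only narrowly (339 against 332 TPM in wild-type replicate 1). In RankCre-ki replicate 2, Car1 gave 674 and Hbb-bt 632 TPM of the sum. Car1 was at 0 and Hbb-bt at 251 TPM in RankCre-ki replicate 1, the library with the higher level of Rbm38. Over the 9 erythroid markers tested the median log2 difference was 2.19, or 1.67 above that of all genes and the highest of the 15 lists examined. Of these 9 markers 1 (11.1%) had both RankCre-ki libraries above all wild-type libraries, beside 18.8% of all tested genes. The summed level of 9 immediate early genes, which respond to cell handling, was 1135, 1347 and 1355 TPM in wild-type HSCs and 1904 and 2602 TPM in RankCre-ki HSCs, and 5 of the 8 tested (62.5%) had both RankCre-ki libraries above, against the same 18.8%. The part of these genes, and of the differing detection of genes, in the level of Rbm38 was not tested. In bulk libraries a larger share of cells with a transcript and more of it in each cell cannot be told apart.

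Trp53, which encodes p53, stood at 86.3, 83.8 and 156 TPM in wild-type HSCs and at 158 and 135 TPM in RankCre-ki HSCs. Wild-type replicate 3 lay between the 2 RankCre-ki libraries, so the groups overlapped. The log2 difference of 0.48 ± 0.50 (SE) had a limma p of 0.364 (adjusted p = 0.951) and was 0.03 below the median of all genes. The order of the pair Trp53 and Rbm38 differed between the genotypes: Trp53 was above Rbm38 in all 3 wild-type libraries and below it in both RankCre-ki libraries. The ratio of Rbm38 to Trp53 was 0.533, 0.268 and 0.227 in wild-type HSCs and 1.71 and 1.32 in RankCre-ki libraries. As it holds Rbm38, this ratio is a description as well.

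Mdm2, the ligase that marks p53 for destruction, stood at 19.99, 27.7 and 22.7 TPM in wild-type HSCs and at 59.5 and 24.4 TPM in RankCre-ki HSCs. The higher mean of the RankCre-ki group came from replicate 1, while replicate 2 lay within the wild-type range. The log2 difference was 0.69 ± 0.73 (SE), with a limma p of 0.374 (adjusted p = 0.952), and was 0.06 without RankCre-ki replicate 1. Mdm4, the partner of Mdm2 that blocks the activating domain of p53, stood at 26.6, 36.9 and 26.8 TPM in wild-type HSCs and at 24.8 and 12.3 TPM in RankCre-ki HSCs. Both RankCre-ki libraries thus lay below all wild-type libraries for Mdm4, as they did for 3.71% of all tested genes, yet its log2 difference of -0.73 ± 0.75 (SE) did not pass the test (limma adjusted p = 0.950).

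The ratio of Mdm2 to Mdm4, chosen after the values had been seen, was 0.752, 0.751 and 0.848 in wild-type HSCs but 2.41 and 1.98 in RankCre-ki HSCs. Mdm4 was thus the more abundant of the pair in every wild-type library and Mdm2 in both RankCre-ki libraries. An exact permutation test of 3 against 2 libraries cannot give a two-sided p below 0.2, so no test is given for it. The ratio of Mdm2 to Trp53 overlapped between the groups, at 0.231, 0.331 and 0.146 in wild-type HSCs and 0.377 and 0.180 in RankCre-ki libraries.

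**Figure D2:**
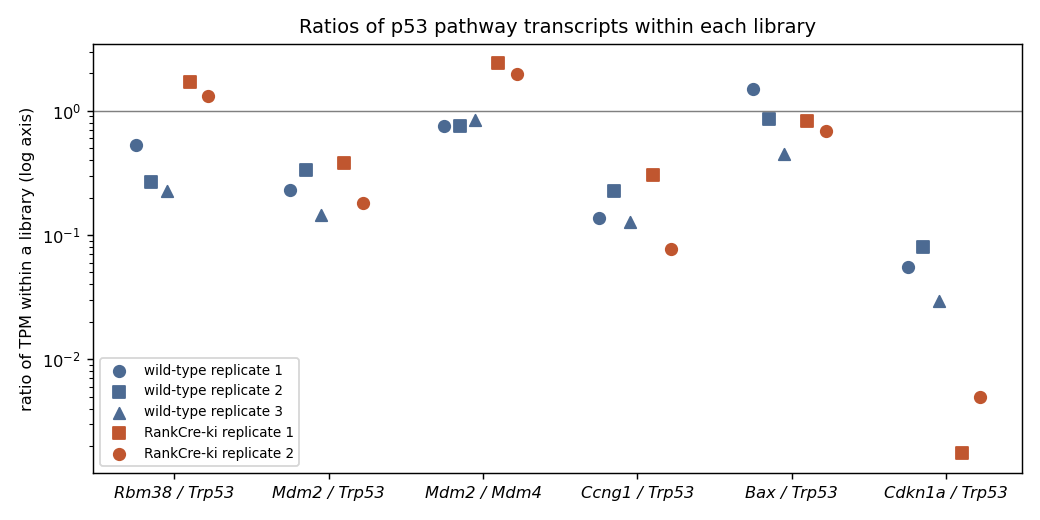
Ratio of the TPM of 2 transcripts within each library (log axis), for 6 pairs; blue symbols are wild-type and red symbols RankCre-ki libraries, and the grey line marks equal levels. Rbm38 / Trp53 and Mdm2 / Mdm4 cross the line of equal levels between the genotypes and Cdkn1a / Trp53 is lower in both RankCre-ki libraries, whereas Mdm2, Ccng1 and Bax relative to Trp53 overlap.

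Among the genes that slow growth, Ccng1, the cyclin G1 that recruits a phosphatase to Mdm2, was the most abundant. It stood at 11.9, 18.8 and 19.96 TPM in wild-type HSCs and at 48.1 and 10.5 TPM in RankCre-ki HSCs, so that the RankCre-ki libraries enclosed all wild-type libraries. Its log2 difference of 0.44 ± 0.93 (SE; limma adjusted p = 0.990) turned to -0.61 without RankCre-ki replicate 1.

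Phlda3, which competes with Akt for membrane lipids and so dampens its signaling, was listed at 0 in wild-type replicates 1 and 2, at 10.7 TPM in replicate 3, and at 2.23 and 0 TPM in RankCre-ki HSCs. Sesn2, a sestrin that restrains mTORC1 under stress, stood at 10.8, 0.056 and 0 TPM in wild-type HSCs and at 5.44 and 0.037 TPM in RankCre-ki HSCs. Trp53inp1, which promotes p53 activity and autophagy, stood at 1.80, 0.0056 and 5.38 TPM in wild-type HSCs and at 3.10 and 2.41 TPM in RankCre-ki HSCs. For each of these genes 1 or 2 wild-type libraries were at or near 0 and another wild-type library was above both RankCre-ki libraries. Their log2 differences were -0.34 ± 1.24, 0.16 ± 1.38 and 0.51 ± 1.16 (SE), all with a limma adjusted p of at least 0.990. Sesn2 went in opposite directions in the name series, -3.51 in series 1 and 2.65 in series 2, and the wild-type libraries of the series likewise differed, at 10.8 TPM in the one and at most 0.056 TPM in the other.

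Bax, which forms the pores that release cytochrome c from mitochondria, was the most abundant apoptosis gene of the set, with a level between 69.6 and 131 TPM. It stood at 130, 71.3 and 69.6 TPM in wild-type HSCs and at 131 and 93.2 TPM in RankCre-ki HSCs, and wild-type replicate 1 was level with RankCre-ki replicate 1. The log2 difference was 0.35 ± 0.53 (SE; limma adjusted p = 0.983), or -0.48 within series 1 and 0.89 within series 2. Bax shares 192 exonic bases with Gm45808 on the same strand, which had 2.23 TPM in RankCre-ki replicate 1 and 0 elsewhere.

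Bbc3 (Puma) and Pmaip1 (Noxa) encode the BH3-only proteins through which p53 triggers Bax. Bbc3 stood at 0.113, 0 and 0 TPM in wild-type HSCs and at 1.19 and 2.57 TPM in RankCre-ki HSCs, so that the groups did not overlap. Its log2 difference was 1.43 ± 0.55 (SE), with a limma p of 0.0305 before and 0.613 after adjustment over all tested genes. It reached the filter of 1 TPM in 2 libraries through the RankCre-ki libraries alone, so a gene of this kind could enter the test only by being higher there. Its level was below those of Bax and Trp53 in every library. Pmaip1 was at 0 in 4 libraries and at 0.093 TPM in RankCre-ki replicate 2, did not pass the filter and was not tested.

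**Figure D3:**
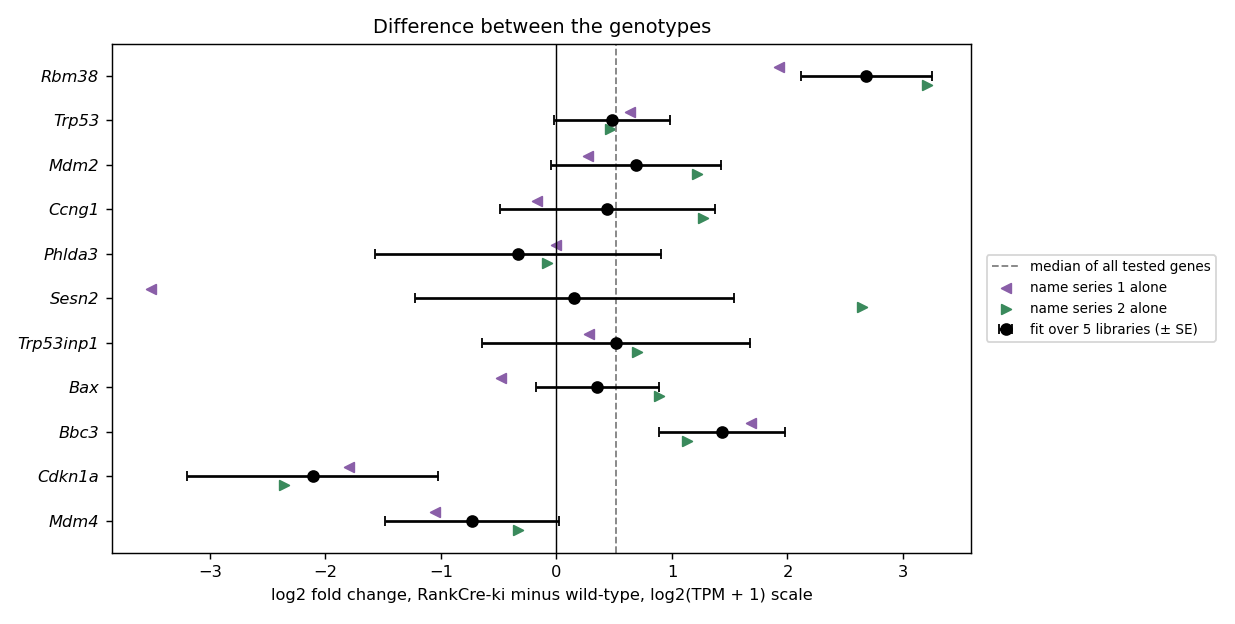
Difference between RankCre-ki and wild-type libraries on the log2(TPM + 1) scale for the 9 tested genes of the set and for Cdkn1a and Mdm4; black points with bars give the fit over 5 libraries ± SE, triangles the difference within each name series, and the dashed line the median of all tested genes (0.52). Rbm38, chosen for its difference, lies farthest right, Trp53 and Trp53inp1 lie on the dashed line, and Sesn2 has its 2 series on opposite sides of 0.

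In all, 9 of the 10 genes passed the filter, and none of the 8 without Rbm38 was called at the limits used (adjusted p no higher than 0.1, log2 difference beyond 2 in either direction). That share must be read against the background, since limma called 0 of 13981 genes (0%), with 960 genes (6.87%) at an unadjusted p under 0.05. The study's own test, made on counts, did report genes past these limits in these HSCs. Bbc3 was the 1 gene of these 8 at an unadjusted p under 0.05. It was also the 1 gene of the 8 (12.5%) with both RankCre-ki libraries above all wild-type libraries, a pattern found in 18.8% of all tested genes, and 0 of the 8 had both below. The median log2 difference of the 8 genes was 0.46, beside 0.52 over all genes.

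The order of levels in wild-type HSCs was Trp53, Bax, Rbm38, Mdm2, Ccng1, Sesn2, Phlda3, Trp53inp1, Bbc3 and Pmaip1. The ranges of Trp53 and Bax overlapped, as did those of Rbm38 and Mdm2 and those of each neighboring pair from Sesn2 downward, while Bax lay clear of Rbm38, Mdm2 of Ccng1 and Ccng1 of Sesn2. In RankCre-ki HSCs the order was Rbm38, Trp53, Bax, Mdm2, Ccng1, Trp53inp1, Sesn2, Bbc3, Phlda3 and Pmaip1. There Rbm38 lay clear of Trp53, Trp53 of Bax and Bax of Mdm2, with 2 libraries each, while Mdm2 and Ccng1 overlapped. The step of Rbm38 from the third to the first place is the description that chose it, and Trp53, Bax, Mdm2 and Ccng1 kept their order relative to each other.

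A wider set of 78 p53 pathway and Bcl-2 family genes, none of them in the set above, was examined next. Of these 58 were tested and 0 were called by limma (0% of all genes), with Sfn, Tigar and Bok at an unadjusted p under 0.05. All 3 reached the filter through the RankCre-ki libraries alone, so they could enter the test only by being higher there. For 8 of the 58 genes the RankCre-ki group was wholly above the wild-type group (13.8%, against 18.8% of all tested genes): Bok, Daxx, Fdxr, Gpx1, Pml, Polh, Sfn and Tigar. For 4 of the 58 it was wholly below (6.90%, against 3.71%): Cdkn1a, Kat5, Mdm4 and Sirt1. Cdkn1a reached the filter through the wild-type libraries alone. The median log2 difference of the 58 was 0.63, or 0.11 more than over all genes. Gpx1, Sfn, Kat5 and Sirt1 are named here because of these counts, after their values had been seen.

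Cdkn1a, the inhibitor of cyclin-dependent kinases whose transcript Rbm38 can stabilize, stood at 4.79, 6.67 and 4.59 TPM in wild-type HSCs and at 0.275 and 0.668 TPM in RankCre-ki HSCs. The groups did not overlap, and Rbm38 and Cdkn1a thus lay apart in opposite directions in the same libraries. Cdkn1a reached the filter of 1 TPM in 2 libraries through the wild-type libraries alone. A gene of this kind could enter the test only by being higher there. Its log2 difference was -2.11 ± 1.09 (SE) and did not pass the test, with a limma p of 0.0887 before and 0.858 after adjustment. It was -1.80 within series 1 and -2.36 within series 2, and between -3.33 and -1.91 under the 14 alternative settings, with adjusted p between 0.407 and 0.999985 where it passed the filter. Relative to Trp53 it was 0.0555, 0.0797 and 0.0294 in wild-type HSCs and 0.0017 and 0.0049 in RankCre-ki libraries.

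The other targets of cell cycle arrest were mixed. Of the 9 tested with Cdkn1a, Sfn was the 1 with both RankCre-ki libraries above (11.1%, against 18.8% of all tested genes). Cdkn1a was the 1 with both below (11.1%, against 3.71%). Sfn entered the test through the RankCre-ki libraries alone and Cdkn1a through the wild-type libraries alone. The median log2 difference of the 9 was 0.60. Btg2, an antiproliferative regulator of transcript decay, stood at 0.0072, 6.12 and 10.04 TPM in wild-type HSCs and 7.34 and 25.2 TPM in RankCre-ki HSCs, a log2 difference of 1.78 ± 1.49 (SE; limma adjusted p = 0.931). Ccng2, the relative of Ccng1, stood at 2.02, 0 and 18.9 TPM in wild-type HSCs and 11.8 and 12.1 TPM in RankCre-ki HSCs (1.72 ± 1.56 SE; limma adjusted p = 0.937). Both genes overlapped between the groups.

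Among 17 tested regulators of p53 the median log2 difference was 0.15, or 0.36 below that of all genes, with 1 gene (5.88%, against 18.8% of all tested genes) above all wild-type libraries and 3 (17.6%, against 3.71%) below. The gap of the median to that of all genes was -0.96 without RankCre-ki replicate 1 and -0.69 without RankCre-ki replicate 2. Daxx, which bridges Mdm2 to its deubiquitinase, stood at 0, 14.5 and 19.2 TPM in wild-type HSCs and 35.2 and 30.1 TPM in RankCre-ki HSCs (2.31 ± 1.45 SE; limma adjusted p = 0.887). Sirt1, a deacetylase of p53, stood at 15.2, 25.3 and 17.7 TPM in wild-type HSCs and 6.58 and 5.77 TPM in RankCre-ki HSCs (-1.48 ± 0.95 SE; limma adjusted p = 0.887). Kat5, an acetyltransferase of p53, stood at 50.02, 35.02 and 29.8 TPM in wild-type HSCs and 21.1 and 18.6 TPM in RankCre-ki HSCs (-0.88 ± 0.68 SE; limma adjusted p = 0.916). The kinase Atm and the phosphatase Ppm1d, which act on p53 in opposite ways, had log2 differences of 1.64 and 1.88 with overlapping groups.

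The 8 tested targets of metabolism and stress had a median log2 difference of 1.02, or 0.51 above that of all genes, and 3 of them (37.5%, against 18.8% of all tested genes) lay above all wild-type libraries. Tigar, a phosphatase that diverts glucose from glycolysis, was listed at 0 throughout in wild-type HSCs but at 3.15 and 5.97 TPM in RankCre-ki HSCs with a limma p of 0.00816 before and 0.521 after adjustment. Fdxr, a mitochondrial reductase that feeds electrons to ferredoxin, stood at 0.329, 0 and 4.82 TPM in wild-type HSCs and 13.5 and 7.88 TPM in RankCre-ki HSCs (2.52 ± 1.31 SE; limma adjusted p = 0.862). Tap1, a transporter of peptides for antigen presentation, overlapped between the groups (2.29 ± 1.48 SE; limma adjusted p = 0.888). Tigar, like Bbc3, entered the test through the RankCre-ki libraries alone. Without RankCre-ki replicate 1 the median of this list was 0.17 below that of all genes, and without wild-type replicate 3 it was 1.31 above.

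Of the 8 tested repair targets 2 (25%) lay above all wild-type libraries, near the 18.8% of all tested genes. Pml, the organizer of PML nuclear bodies, stood at 0.165, 6.89 and 9.81 TPM in wild-type HSCs and 38.6 and 30.5 TPM in RankCre-ki HSCs, with a log2 difference of 2.93 ± 1.31 (SE; limma adjusted p = 0.747). Polh, a polymerase that copies past damaged bases, stood at 2.18, 0 and 1.84 TPM in wild-type HSCs and 4.01 and 3.60 TPM in RankCre-ki HSCs (limma adjusted p = 0.934). Ddb2, which recognizes ultraviolet lesions, was listed at 0 in wild-type replicate 1, at 0.636 and 34.3 TPM in replicates 2 and 3, and at 11.5 and 9.84 TPM in RankCre-ki HSCs. The median log2 difference of this list was 0.84.

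None of the 10 tested apoptosis targets lay wholly above or below, and their median log2 difference was 0.55. The gap to the median of all genes was 0.03. It was 0.78 without RankCre-ki replicate 2 and -0.30 without wild-type replicate 2. Aen, a nuclease of apoptosis, Pidd1, which assembles the caspase-2 platform, and Ei24 had the largest log2 differences, of 1.90, 1.41 and 1.41, with overlapping groups. Of the 15 Bcl-2 family genes 7 were tested, with a median of 0.41. The gap of this median to that of all genes was -0.11. It was -0.65 without RankCre-ki replicate 1 and -0.62 without RankCre-ki replicate 2. Bok, a relative of Bax, stood at 0.031, 0 and 0 TPM in wild-type HSCs and 8.54 and 4.69 TPM in RankCre-ki HSCs with a limma p of 0.00655 before and 0.521 after adjustment (2.87 ± 0.78 SE), and it too entered the test through the RankCre-ki libraries alone.

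The antagonists of Bax overlapped between the groups. Mcl1, on which HSCs are known to depend, stood at 23.0, 68.6 and 62.4 TPM in wild-type HSCs and 29.9 and 11.6 TPM in RankCre-ki HSCs (-1.26 ± 0.80 SE; limma adjusted p = 0.887). Bcl2 stood at 8.58, 1.39 and 6.87 TPM in wild-type HSCs and 4.45 and 2.07 TPM in RankCre-ki HSCs (-0.47 ± 1.31 SE; limma adjusted p = 0.992). Bad, a BH3-only protein that antagonizes Bcl2, had a log2 difference of 1.25 ± 1.10 (SE). The ratio of Bax to Mcl1 was 5.66, 1.04 and 1.12 in wild-type HSCs and 4.397 and 8.0 in RankCre-ki libraries, and wild-type replicate 1 lay between the 2 RankCre-ki libraries.

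**Figure D4:**
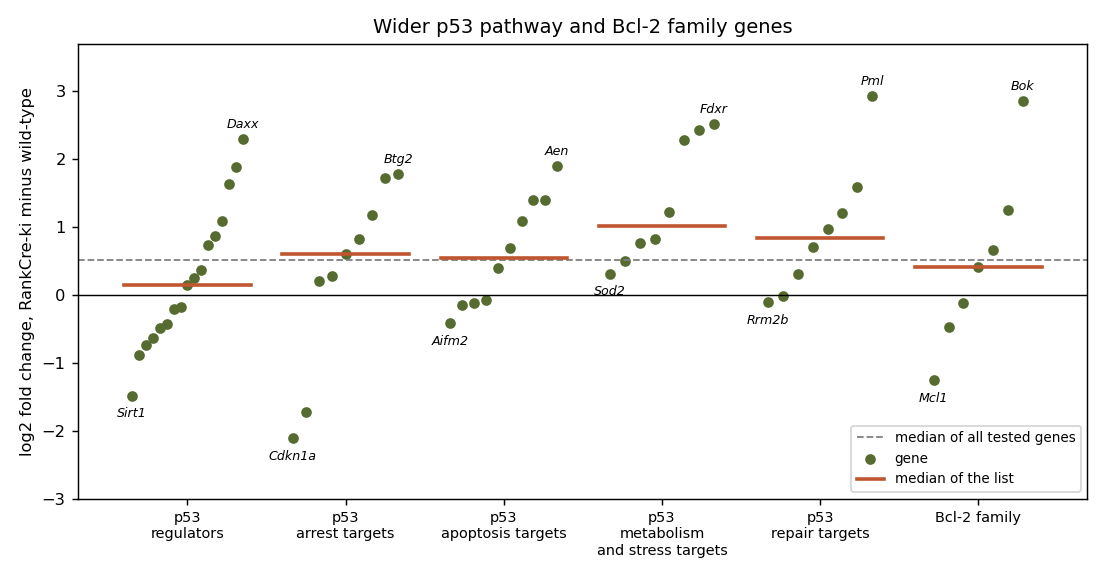
Difference between RankCre-ki and wild-type libraries on the log2(TPM + 1) scale for each tested gene of 5 p53 pathway lists and of the Bcl-2 family (green points), with the list's median (red bar), the median of all tested genes (dashed line) and the outermost genes named. List medians lie between 0.15 for the regulators and 1.02 for metabolism and stress, and Cdkn1a is the lowest point.

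Relatives of the set were compared as well. Of 10 paralogs 5 were tested. Sesn1 was the most abundant sestrin, at 33.6, 45.5 and 129 TPM in wild-type HSCs and 134 and 73.8 TPM in RankCre-ki HSCs, and Sesn3 stood at 5.95, 4.41 and 3.06 TPM in wild-type HSCs and 11.96 and 9.86 TPM in RankCre-ki HSCs. Sesn3 did not overlap between the groups (1.15 ± 1.17 SE; limma adjusted p = 0.949), whereas Sesn1 and Sesn2 did. Of the 5 paralogs tested Sesn3 was the 1 (20%) above all wild-type libraries, near the 18.8% of all tested genes. Mdm4 was the 1 below (20%, against 3.71%).

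The genes whose profile over the 5 libraries was most like that of Rbm38 were sought among the 7209 genes that averaged 10 TPM or more, by the root mean square difference of their centered log2(TPM + 1) values. They were H2-Q5 (0.33), Thsd1 (0.35), Eps15l1 (0.40), Ldb1 (0.45) and Hsh2d (0.45), beside a median of 1.54 over all genes compared. Hsh2d, an adaptor of hematopoietic cells, stood at 4.97, 3.33 and 10.1 TPM in wild-type HSCs and 54.2 and 48.8 TPM in RankCre-ki HSCs. Ldb1, a cofactor that joins LIM and GATA factors into complexes, stood at 5.71, 2.34 and 3.26 TPM in wild-type HSCs and 18.2 and 30.4 TPM in RankCre-ki HSCs. H2-Q5 belongs to the major histocompatibility complex, whose near-identical genes can share fragments, so its value is uncertain. These genes were picked for their likeness to a gene chosen for its difference, over only 5 libraries. No gene of the p53 pathway was among them.

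Csf1r, the gene of the floxed and null alleles, stood at 2.39, 0 and 0.234 TPM in wild-type HSCs and at 17.5 and 6.46 TPM in RankCre-ki HSCs. Tnfrsf11a, which encodes Rank and holds the Cre, stood at 2.08, 0.360 and 0.0806 TPM in wild-type HSCs and at 0.0811 and 1.47 TPM in RankCre-ki HSCs. Neither gene checks the labels of these libraries, since a value per gene does not show whether the deleted parts were present. The summed level of 9 macrophage markers was 18.4, 53.9 and 52.3 TPM in wild-type HSCs and 33.5 and 52.8 TPM in RankCre-ki HSCs. Sums of the other marker lists overlapped between the groups, at 234 to 268 TPM against 322 and 131 TPM for 8 myeloid markers, 1.07 to 45.8 against 30.9 and 42.2 TPM for 8 lymphoid markers, 82.9 to 205 against 180 and 177 TPM for 6 megakaryocyte markers, and 18.5 to 35.3 against 28.9 and 31.8 TPM for 8 stromal and endothelial markers.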

How the data were processed

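Poly(A) RNA of sorted HSCs was reverse transcribed, amplified and tagmented. The authors deposited TPM values per gene. Each library summed to 1000000 TPM, and the tool that made them is not given in the sources used here. The authors' own test used reads aligned to mm10 and counted by featureCounts (2.0.1 in the submitters' processing notes). The table held 55427 rows, and its 92 spike-in rows, all at 0, were removed. There were 179 values between 0 and 1e-06 TPM, so fragments were shared among transcripts by estimation, and paralogs or overlapping genes can exchange signal. Whether strand was used is not stated.

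Groups and replicate numbers came from the sample titles. Genes with at least 1 TPM in 2 libraries (13981 genes) were compared on log2(TPM + 1) with limma 3.58.1 in R 4.3.3 (lmFit, eBayes with trend, two-sided), over the 5 libraries without a covariate (the study states none). Adjustment was by Benjamini-Hochberg over all tested genes, and p-values adjusted over a list alone were not used. Calls needed an adjusted p no higher than 0.1 and a log2 difference beyond 2 in either direction, the limits of the study. The code was tested on simulated data. No count model was fitted, since TPM are not counts.

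The members and the 15 gene lists were chosen with earlier results of these data known. Rows for Cdkn1a, Tigar and Trp53inp2 in a supplementary table of the study had also been seen. Named genes were the 10 members, up to 3 tested genes of each list with the largest absolute log2 difference, Cdkn1a, Mdm4, Bcl2, Mcl1 and Rbm24, the 5 genes most like Rbm38, Tnfrsf11a and Csf1r, and Xist and Eif2s3y. Positions came from GENCODE M21 (GRCm38), which held 99.7% of the gene IDs. Promoter windows came from RefSeq (GRCm38.p6). Alternatives covered the pseudocount, the filter, the scaling, the variance trend, the name series, a replicate block, the fold limit and leaving out each library.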

Additional observations from a re-analysis of the deposited data

How the results depend on the processing

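Among the members other than Rbm38 that passed each alternative's filter, between 5 and 9, 0 passed the threshold under the 15 alternatives, and so did 0 of the 48 to 74 wider pathway genes tested. Bbc3 was not tested with the filter of 5 TPM, after median-ratio scaling or without either RankCre-ki replicate. The count over all genes stayed at 0 except for 1 gene with the replicate block, and it was between 0 and 17 genes when 1 library was left out, reaching 17 without RankCre-ki replicate 1 and 8 without RankCre-ki replicate 2. In these last fits the lone RankCre-ki library is assumed to vary like the wild-type libraries; the cause was not tested. Rbm38, chosen for its difference, lay between 2.18 and 2.98 under 14 alternatives, which is a description. The log2 differences of Mdm2 (0.06 to 1.32), Bbc3 (0.32 to 3.85), Mdm4 (-1.21 to -0.26) and Cdkn1a (-3.33 to -1.91) kept their sign under these alternatives. The changed filters and the fit without a variance trend left the differences as they were and could not change a sign. Leaving out 1 library could not do so either for Rbm38, Bbc3, Mdm4 and Cdkn1a, whose groups did not overlap. The log2 differences of 6 members reversed, and the cause was not tested. After median-ratio scaling Bax was at -0.15, Ccng1 at -0.0389, Sesn2 at -0.13 and Trp53 at -0.0205. After quantile normalization Ccng1 was at -0.0681, Sesn2 at -0.78 and Trp53inp1 at -0.75. Phlda3 was at 0.0207 with a pseudocount of 0.1. Leaving out a library put Ccng1 between -0.61 and 1.49, Phlda3 between -1.18 and 0.85, Sesn2 between -1.16 and 1.47 and Trp53inp1 between -0.18 and 1.15. Bax was then between 0.11 and 0.64 and Trp53 between 0.33 and 0.77. With both RankCre-ki libraries required above all wild-type libraries, the count of members besides Rbm38 was 0 after quantile normalization and between 2 and 5 when 1 library was left out, where fewer libraries make the pattern easier to meet.

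Same-numbered libraries of the 2 genotypes share only a number: their deviations from the group means correlated at -0.380 and -0.195, over 2 pairs. With the replicate block, which drops wild-type replicate 3 as it has no partner, 1 gene passed the threshold, Phlda3 was at 0.85 and Sesn2 at -0.45. TPM keeps no depth, so values near 0 such as those of Phlda3, Sesn2, Bbc3 and Pmaip1 have no known counting error.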
